A study of Mus musculus with 9 samples.

Results

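The subunits of the mitochondrial oxidative phosphorylation system were followed in the regenerating mouse salivary gland. Members were chosen by symbol alone: all genes named Ndufa, Ndufb, Ndufc, Ndufs or Ndufv with a number, Sdha to Sdhd, all Uqcr genes, the Cox4 to Cox8 genes, all Atp5 genes, and Cyc1 and Cycs. This gave 86 of the 19505 gene symbols on the array, each measured by 1 transcript cluster, the set of probes that stands for a gene. Complex I holds 37 of them, complex II 4, complex III 9, complex IV 18 and complex V 17, and Cycs stands alone. The subunits encoded by mitochondrial DNA were not analysed here. Ndufa4 was kept with complex I by its name, although structural work places it in complex IV.

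Complexes I and II take electrons from NADH and from succinate and pass them to ubiquinone. Complex III hands them to cytochrome c, the mobile carrier encoded by Cycs, and complex IV gives them to oxygen, while complex V uses the proton gradient so built to make ATP. In salivary glands the ducts, above all the striated ducts that reabsorb sodium, are known as the segments richest in mitochondria.

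The arrays measured total RNA of the salivary gland from C57BL6/J mice, all female and 12 weeks old. All animals had surgery: 3 glands came from mock surgery with 3 days of healing, 3 from partial resection with 3 days of healing, and 3 from partial resection with 14 days of healing. The labels call the 3 arrays of a group biological replicates. A mock group at day 14 was not analysed here. At day 14, resection, time since surgery and any difference in collection, such as the hour, cannot be told apart. Dbp, a clock output gene, had the lowest day 14 difference from mock of all transcript clusters (-7.5). The part of the hour was not tested. The median log2 value of all 22206 transcript clusters lay between 5.09 and 5.24 on the 9 arrays, and the number of arrays limits the precision. Serous acinar markers were at mean log2 values of 17.47 to 18.20 on all arrays, while the skeletal muscle markers, for another tissue rich in these subunits, stayed between 3.38 and 3.88.

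On day 3 after resection no subunit rose and 3 fell: Ndufa1, Ndufa6 and Ndufb10, all accessory subunits of complex I, which surround its catalytic core. Here and below, rose and fell mean a call at an adjusted p under 0.05 in limma. On day 14 no subunit was called in either direction, where 0.153% of all transcript clusters were. The lack of calls does not show that no subunit changed. The whole set lay slightly below mock at both times, with a median log2 difference of -0.16 on day 3 (59 of 86 members below mock) and -0.22 on day 14 (69 of 86). Over all transcript clusters the medians were -0.06 and 0.00, with 56.9% and 50.2% below mock. In bulk tissue, fewer cells of a type and less RNA per cell cannot be told apart.

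Calls used limma over all transcript clusters with an adjusted p under 0.05. The 3 members that fell on day 3 are 3.49% of the set, against 1.36% of all transcript clusters called lower and 4.92% called higher, or 6.27% in either direction. Among the 69 members with a mean log2 value of at least 10, 2 fell (2.9%), close to the 3.79% of the 3085 transcript clusters that bright. The count of 3 was 6 after quantile normalization and 5 after median centring, all lower, and without day 3 resected replicate 1 it was 1, Ndufa6. On day 14, 0.0991% of all transcript clusters were called higher and 0.054% lower, 0.153% in all. At an unadjusted p under 0.05, 11 members differed on day 3, 9 lower and 2 higher, where all transcript clusters gave 8.62% lower and 10% higher, 18.6% in all. On day 14 there were 10 members, all lower, where all transcript clusters gave 4.58% lower and 3.6% higher, 8.18% in all. Of the bright transcript clusters 296 of 3085 were lower by this measure, beside 8 of the 69 bright members.

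The day 14 differences were small and spread over many members. The groups did not overlap for 20 members, all lower (23.3%), against 6.99% of all transcript clusters lower and 6.03% higher, and against 13.8% lower of the transcript clusters with a mean of at least 10, where the members reached 26.1%. Of the bright members 79.7% lay below mock, beside 59.6% of all bright transcript clusters. On day 3, 15 members were lower without overlap (17.4%) and 4 higher (4.65%), where all transcript clusters gave 11.8% and 11.2%. Among bright transcript clusters that day, the lower shares were 15.9% for members and 18.5% for all, so by the lower share the members did not stand above their background. The higher shares that day were 5.8% for bright members and 15.9% for all bright transcript clusters. Of the bright members 65.2% lay below mock on day 3, beside 55.2% of all that bright. Both comparisons use the same mock arrays, and 52 members lay below mock in both and 10 above in both. The same was not counted over all transcript clusters. The day 3 median rests in part on single arrays: it was -0.09 without mock replicate 2, -0.24 without mock replicate 3 and -0.08 without day 3 resected replicate 1.

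By complex, the day 3 medians were -0.14 for complex I, -0.36 for II, -0.13 for III, -0.21 for IV and -0.20 for V. On day 14 they were -0.18, -0.25, -0.08, -0.22 and -0.23 in the same order. The complexes were not tested against each other, and on day 3 each spanned a range of single-gene differences wider than the distance between these medians. The complex I median was -0.09 on day 3 without mock replicate 1 or 2, and without mock replicate 3 it was -0.24 on day 3 and -0.34 on day 14. The day 3 median of complex II was -0.21 without mock replicate 1 and -0.54 without mock replicate 2, and its day 14 median was -0.15 without mock replicate 1. In complex V the day 3 median was 0.02 without mock replicate 2 and -0.01 without day 3 resected replicate 1. In complex III the day 3 median was between -0.05 and -0.01 when any resected array was left out, -0.04 without mock replicate 1 or 2, and 0.06 over the members with a mean of at least 10. Its day 14 median was -0.17, -0.12 and -0.23 without mock replicate 1, 2 and 3, and -0.12 and -0.21 without resected replicate 1 and 2.

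**Figure D1:**
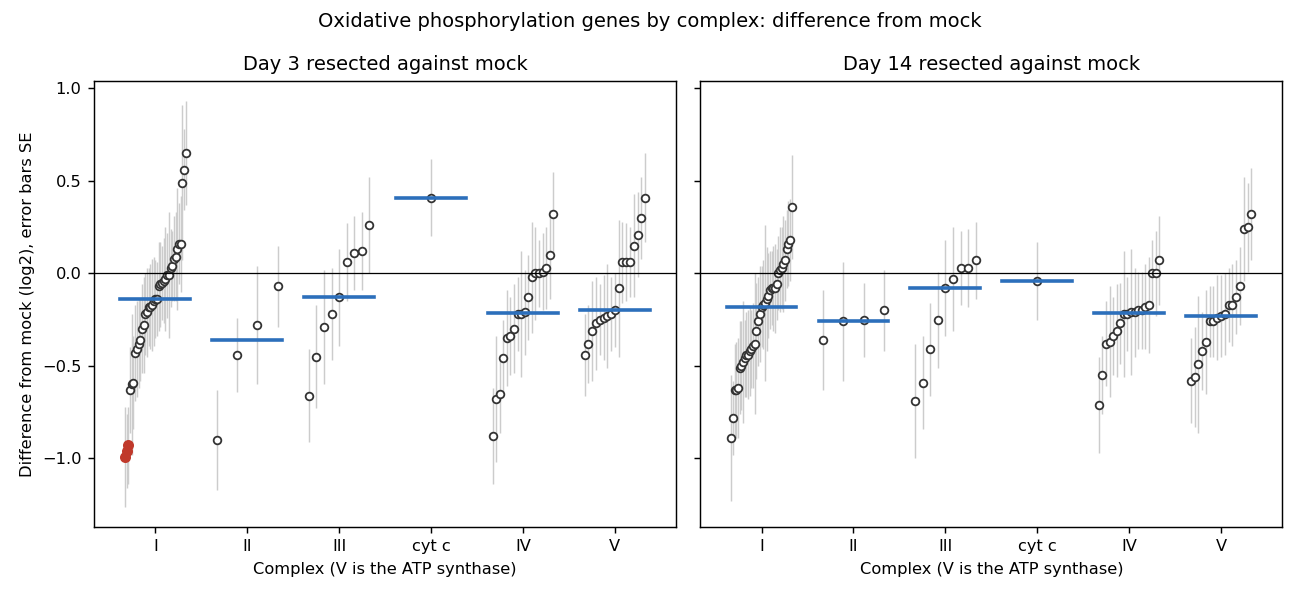
Log2 difference from mock of each of the 86 genes on day 3 (left) and day 14 (right), grouped by complex on the x axis. Points are genes, grey bars are the standard error from limma, blue lines are the median of a complex, and filled red points passed the threshold. The 3 red points are in complex I on day 3, and the right panel has none.

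The sequences before the 3 genes that fell are shown because these were the members with a call. Each line gives the 250 bases before the annotated start, 5′ to 3′ on the gene's strand, from RefSeq promoters of build GRCm38.p6. Capitals mark a match to a motif searched in all members and described further on: the YY1 core in Ndufa1 and the NRF1 core in Ndufa6. Ndufb10 has no capitals, since none of the searched motifs is in its window. The Ndufa1 window is chrX:37191239-37191488, the Ndufa6 window is chr15:82354292-82354541 and the Ndufb10 window is chr17:24724424-24724673, all on the minus strand.
Ndufa1: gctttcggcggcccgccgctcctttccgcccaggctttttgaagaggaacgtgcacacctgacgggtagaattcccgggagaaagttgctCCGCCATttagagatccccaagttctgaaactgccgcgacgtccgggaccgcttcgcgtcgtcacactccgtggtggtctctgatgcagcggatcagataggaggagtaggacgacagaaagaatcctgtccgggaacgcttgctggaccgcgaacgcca
Ndufa6: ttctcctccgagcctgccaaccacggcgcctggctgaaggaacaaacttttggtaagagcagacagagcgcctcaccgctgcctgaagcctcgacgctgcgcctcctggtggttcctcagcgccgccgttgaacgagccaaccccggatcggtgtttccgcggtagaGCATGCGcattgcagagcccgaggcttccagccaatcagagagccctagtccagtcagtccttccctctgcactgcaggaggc
Ndufb10: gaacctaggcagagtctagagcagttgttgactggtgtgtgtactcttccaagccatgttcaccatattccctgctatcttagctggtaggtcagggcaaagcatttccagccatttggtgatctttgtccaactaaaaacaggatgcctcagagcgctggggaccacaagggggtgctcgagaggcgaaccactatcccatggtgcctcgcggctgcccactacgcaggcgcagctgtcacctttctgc
The windows hold 59.6%, 62.4% and 54.4% G and C bases.

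Ndufa1 encodes a small membrane subunit needed to build complex I. Its log2 values were 12.48, 12.56 and 12.28 in mock glands, 11.25, 11.57 and 11.73 on day 3 after resection, and 12.00, 12.04 and 12.04 on day 14. Every resected gland lay below every mock gland, and the day 14 glands lay between the other groups. Ndufa1 fell by 0.93 ± 0.21 (SE) on the log2 scale on day 3 (adjusted p = 0.0158, n = 3 per group). The day 14 difference from mock was -0.41 ± 0.21 (adjusted p = 0.638). Leaving out mock replicate 2 ended the day 3 call (adjusted p = 0.0548), as did leaving out day 3 resected replicate 1 (adjusted p = 0.0622).

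Ndufa6 encodes an accessory subunit of the LYR family that sits on the matrix side of the complex. Values were 14.12, 14.01 and 13.85 in mock, 12.79, 13.15 and 13.15 on day 3, and 13.17, 13.11 and 13.35 on day 14. Both resected groups lay wholly below mock, and they overlapped each other. Ndufa6 fell by 0.96 ± 0.20 on day 3 (adjusted p = 0.0118), and this call held in every alternative run, with adjusted p between 0.0229 and 0.0484 when 1 array was left out. On day 14 it differed from mock by -0.78 ± 0.20 and had the smallest adjusted p of the set in that comparison (0.252).

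Ndufb10 encodes an accessory subunit of the membrane arm. Values were 8.42, 9.19 and 9.0 in mock, 7.66, 7.95 and 8.02 on day 3, and 8.24, 7.85 and 8.65 on day 14. The day 3 glands were the lowest, with no overlap with mock, while the day 14 glands overlapped both groups. Ndufb10 fell by 0.99 ± 0.27 on day 3 (adjusted p = 0.046). This call was the least secure of the 3: without any 1 of the 6 arrays compared other than mock replicate 1 the adjusted p was 0.0959 to 0.153. Its day 14 difference was -0.62 ± 0.27 (adjusted p = 0.575).

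Further complex I genes were lower on day 3 without overlap but did not pass the test. Ndufb11, a membrane arm subunit, differed by -0.63 ± 0.23 (adjusted p = 0.142), and Ndufa9, which lies near the ubiquinone site, by -0.59 ± 0.25 (adjusted p = 0.223). Ndufa8 and Ndufb8 showed smaller differences of -0.21 and -0.22. On both days the groups of Ndufa1, Ndufa6 and Ndufb11 lay below mock without overlap, as did those of Sdhc, Cox7a2l, Atp5a1 and Atp5b in other complexes. These were 7 members in all, while 0 members lay above mock in this way on both days. Both comparisons use the same mock arrays. The share of all transcript clusters with this pattern was not counted, so these counts have no background beside them.

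The highest complex I differences on day 3 belonged to Ndufs8, a core subunit that carries iron-sulfur clusters, and to the accessory subunit Ndufa11. Ndufs8 had values of 14.56, 13.56 and 13.81 in mock, 14.49, 14.54 and 14.84 on day 3, and 14.58, 14.50 and 13.92 on day 14. Mock replicate 1 lay among the resected glands and the other mock glands below them, so the groups overlapped. The day 3 difference of Ndufs8 was 0.65 ± 0.28 (adjusted p = 0.241). Ndufa11 read 11.65, 11.63 and 11.84 in mock, 12.15, 12.14 and 12.49 on day 3, and 12.01, 11.87 and 11.44 on day 14. Its day 3 glands were all above mock and all above day 14, at 0.56 ± 0.22 over mock (adjusted p = 0.189).

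The 6 measured core subunits, Ndufs1, Ndufs3, Ndufs7, Ndufs8, Ndufv1 and Ndufv2, had a median difference of -0.11 on day 3 and -0.08 on day 14. The 31 accessory subunits had medians of -0.14 and -0.22. Ndufv1, the subunit that binds NADH, was lower on day 14 without overlap, at -0.51 ± 0.25 (adjusted p = 0.623). Ndufa4l2, a relative of Ndufa4 known as a target of hypoxia signalling, read 4.43 to 5.25 in mock, 4.70 to 6.33 on day 3 and 4.03 to 5.27 on day 14, with overlap between all groups. Ndufb4 and Ndufb4b are near-identical copies whose probes may share signal, and their differences of 0.03 and -0.18 on day 3 are uncertain for that reason.

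On day 14 the lowest difference in complex I was that of Ndufa5, an accessory subunit of the matrix arm. It read 12.35, 13.53 and 12.04 in mock, 12.47, 12.33 and 13.11 on day 3, and 11.88, 11.67 and 11.70 on day 14. The day 14 glands were below all others, but mock replicate 2 stood far above the other mock glands. The difference was -0.89 ± 0.34 from mock (adjusted p = 0.542) and -0.89 from day 3. Without mock replicate 2 the difference from mock was -0.45. Ndufs4, whose loss causes a mitochondrial disease in mice and humans, differed by -0.63 ± 0.26 from mock on day 14 (adjusted p = 0.568), and Ndufc2 by -0.46 ± 0.21 (adjusted p = 0.61), both without overlap.

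**Figure D2:**
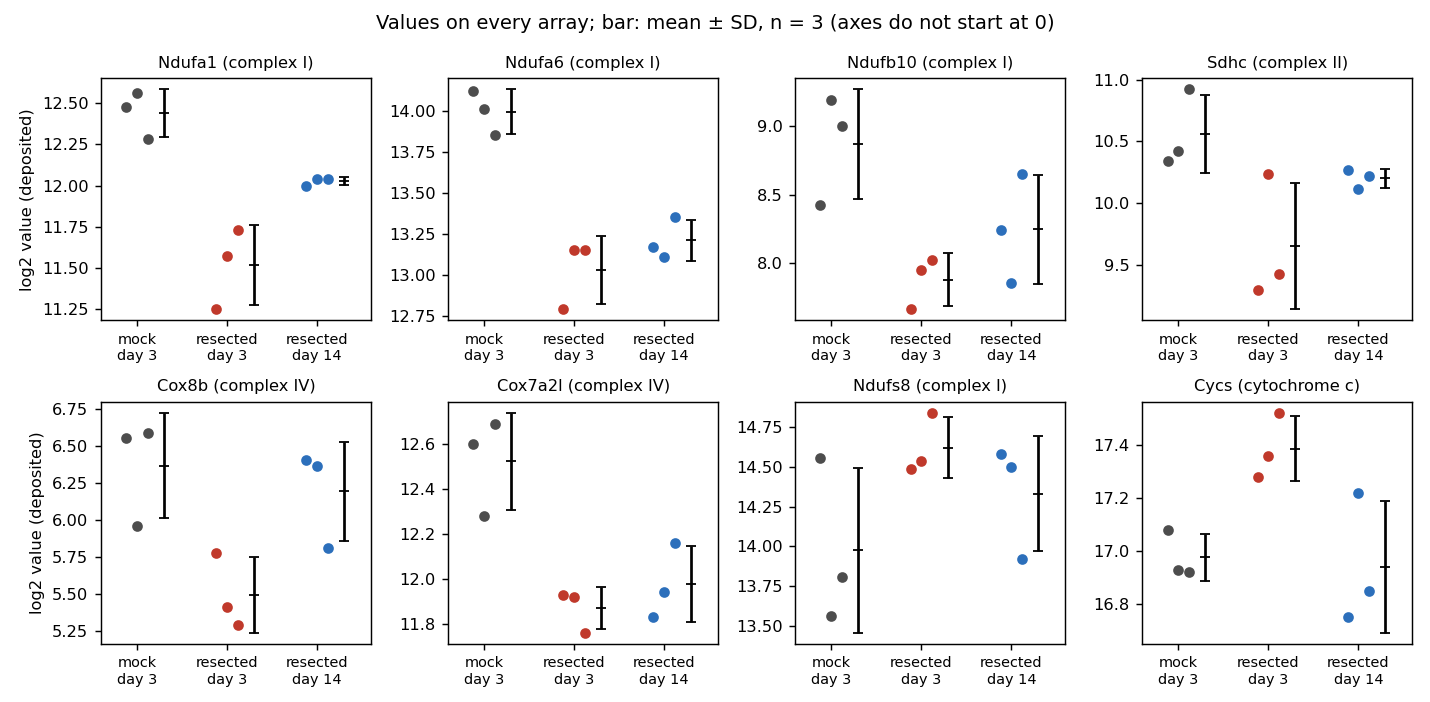
Deposited log2 values on every array for 8 members, with groups on the x axis, coloured points for arrays and black bars for the mean ± SD of 3 arrays. The axes do not start at 0 and differ between panels. Ndufa1, Ndufa6 and Ndufb10 are lowest on day 3 or level with day 14, whereas the day 3 points of Cycs lie above those of mock and of day 14.

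Complex II, which also works in the tricarboxylic acid cycle, had all 4 members below mock on both days, none past the threshold. Without mock replicate 1, 2 of the 4 lay below mock on day 3 and 3 on day 14. Sdhc, a membrane anchor, was the closest to the threshold: 10.34, 10.42 and 10.92 in mock, 9.30, 10.24 and 9.43 on day 3, and 10.27, 10.12 and 10.22 on day 14. Both resected groups were below mock, with day 3 replicate 2 just under the lowest mock gland. The day 3 difference was -0.90 ± 0.27 (adjusted p = 0.0698) and became -1.2 (adjusted p = 0.0186) without that array. It passed the threshold as well after quantile normalization (-0.98, adjusted p = 0.0434) and after median centring (-0.98, adjusted p = 0.0442). It was farther from it without mock replicate 3 (-0.72, adjusted p = 0.202), without resected replicate 1 (-0.73, adjusted p = 0.206) or 3 (-0.79, adjusted p = 0.236), and with array weights (-0.81, adjusted p = 0.12).

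Sdhb, the iron-sulfur subunit, read 14.31, 14.51 and 14.44 in mock, 13.91, 13.99 and 14.06 on day 3, and 14.44, 13.94 and 14.16 on day 14. Its day 3 glands were all below mock, at -0.44 ± 0.20 (adjusted p = 0.275), and its day 14 glands overlapped both groups. Sdha, the catalytic flavoprotein, spread widely in mock (10.95, 9.43 and 10.34), and its day 3 difference of -0.28 ± 0.32 was 0.08 without mock replicate 1. Sdhd, the other anchor, differed by -0.07 on day 3 and -0.20 on day 14.

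Complex III had 4 members above and 5 below mock on day 3. Uqcrc2, a large core protein on the matrix side, was the lowest: 10.93, 10.41 and 10.06 in mock, 9.55, 9.88 and 9.98 on day 3, and 9.99, 9.94 and 10.23 on day 14. Day 3 lay below mock without overlap, by a narrow margin, and the difference was -0.66 ± 0.25 (adjusted p = 0.161), or -0.43 without mock replicate 1. Uqcrc1, its partner, differed by -0.45 ± 0.28, which was -0.25 without mock replicate 3 and -0.20 without day 3 resected replicate 3. Uqcrfs1, the Rieske iron-sulfur protein, differed by 0.12. On day 14 the lowest were Cyc1, the cytochrome c1 subunit, at -0.69 ± 0.31 (adjusted p = 0.595), and the hinge protein gene Uqcrh at -0.59 ± 0.25 (adjusted p = 0.568). Cyc1 read 9.48, 10.25 and 10.16 in mock, 9.61, 10.30 and 9.12 on day 3, and 9.36, 8.99 and 9.47 on day 14, so that the day 14 glands lay just under the lowest mock gland. Uqcrb, which binds ubiquinone, read 19.45 to 19.84 on the 9 arrays, close to the highest value of the table (19.93), which leaves little room to measure a rise.

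Cycs, which also serves as a trigger of apoptosis once released, was 1 of 4 members that lay above mock on day 3 without overlap. It read 17.08, 16.93 and 16.92 in mock, 17.28, 17.36 and 17.52 on day 3, and 16.75, 17.22 and 16.85 on day 14. All day 3 glands were above all others. The difference was 0.41 ± 0.21 from mock (adjusted p = 0.323), and day 14 differed from day 3 by -0.44 ± 0.21 (adjusted p = 0.268), neither past the threshold. Atp5g1, Ndufa11 and Uqcrfs1 were the other members higher than mock without overlap on day 3. The margin was very narrow for Atp5g1, where the lowest day 3 value and the highest mock value both round to 16.14. It was also narrow for Uqcrfs1, at 11.82 and 11.81.

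Complex IV, cytochrome c oxidase, exists in forms built from tissue-specific paralogues, and these paralogues, with Cox7a2l, held its lowest day 3 differences. Cox8b, the heart and skeletal muscle form of subunit 8, read 6.56, 5.96 and 6.59 in mock, 5.78, 5.41 and 5.29 on day 3, and 6.41, 6.37 and 5.81 on day 14. The day 3 glands were the lowest, and day 14 overlapped mock. The day 3 difference was -0.88 ± 0.26 (adjusted p = 0.0647), and it passed the threshold after quantile normalization (-0.98, adjusted p = 0.0474), after median centring (-0.95, adjusted p = 0.0473) and without mock replicate 2 (-1.09, adjusted p = 0.0348). Without mock replicate 3 it was -0.77 (adjusted p = 0.174), and the adjusted p reached 0.222 without day 3 resected replicate 3. Against day 3, the day 14 glands differed by 0.70 ± 0.26, the smallest adjusted p of the set in that comparison (0.145).

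Cox7a2l, a relative of subunit 7a, read 12.60, 12.28 and 12.69 in mock, 11.93, 11.92 and 11.76 on day 3, and 11.83, 11.94 and 12.16 on day 14. Both resected groups were below mock. The differences were -0.65 ± 0.21 on day 3 (adjusted p = 0.0901, and past the threshold after quantile normalization) and -0.55 ± 0.21 on day 14 (adjusted p = 0.522). Cox4i2, the oxygen-responsive form of subunit 4 known from lung, was also lower on day 3 without overlap, at -0.46 ± 0.21, while the testis form Cox7b2 differed by -0.68 ± 0.34 with overlap, or by -0.40 without mock replicate 3. Cox6b2, another testis form, was the only member among the dimmest 30% of transcript clusters.

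With the tissue-specific paralogues and Cox7a2l left out, the day 3 median of complex IV was 0.00, and it was also 0.00 over its members with a mean of at least 10. Over all 18 members the day 3 median of complex IV was -0.21. That median was -0.10 without mock replicate 2, -0.08 without day 3 resected replicate 1 and -0.35 without day 3 resected replicate 3. On day 14, 16 of the 18 members lay below mock. Cox4i1, the common form of subunit 4, read 13.89, 14.69 and 14.10 in mock, 13.67, 13.82 and 14.16 on day 3, and 13.88, 13.46 and 13.22 on day 14. Its day 14 glands lay just below mock, at -0.71 ± 0.26 (adjusted p = 0.518). Cox7b differed by -0.34 ± 0.21 on both days, without overlap on day 14. Cox7c stood at the highest value of the table on all 9 arrays (19.92 to 19.93), so no change in it could be measured. It was the 1 member at the array maximum, although 15 members exceeded 16 on all arrays.

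Complex V had 10 of 17 members below mock on day 3 and 14 of 17 on day 14, none past the threshold. Its catalytic subunits differed little from mock, and in the same direction on both days. Atp5a1, the alpha subunit, read 17.94, 18.20 and 17.81 in mock, 17.71, 17.67 and 17.42 on day 3, and 17.57, 17.39 and 17.72 on day 14. Atp5b, the beta subunit, read 18.37, 18.47 and 18.56, then 18.32, 18.23 and 18.11, then 18.27, 18.08 and 18.27. For both genes every resected gland lay below every mock gland, with differences of -0.38 ± 0.21 and -0.25 on day 3 and of -0.42 ± 0.21 and -0.26 on day 14, none past the threshold.

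In the same complex Atp5g1, one of 3 genes for the c ring, differed by 0.41 ± 0.24 on day 3, and Atp5j, a stalk subunit, by -0.44 ± 0.22 (adjusted p = 0.324). Without mock replicate 2 these differences were 0.17 and -0.27. On day 14 Atp5mpl, a small membrane subunit, was the lowest at -0.58 ± 0.23 (adjusted p = 0.555, no overlap). Atp5d, the delta subunit, had the opposite sign on day 14: 14.90, 14.57 and 14.63 in mock, 14.73, 14.33 and 14.24 on day 3, and 14.81, 14.74 and 15.51 on day 14. Day 14 replicate 3 was the highest, and the day 14 glands overlapped mock. Its difference was 0.32 from mock and 0.59 ± 0.25 from day 3 (adjusted p = 0.227). Without day 14 replicate 3 these were 0.08 and 0.34.

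Set against day 3 directly, day 14 glands had 0 members past the threshold, where limma called 1.4% of all transcript clusters higher and 4.88% lower, 6.28% in all. At an unadjusted p under 0.05 there were 6 members, 3 in each direction, where all transcript clusters gave 8.68% higher and 10.2% lower, 18.9% in all. The median was -0.05 (54 of 86 lower), beside 0.06 over all transcript clusters. Without overlap 17 members were lower (19.8%, beside 12.5% of all) and 3 higher (3.49%, beside 12.9%). Among bright transcript clusters the lower share was 21.7% for the members and 21.7% for all. By the lower share the members did not stand above their background here either. The higher share was 2.9% for the bright members and 17.8% for all bright transcript clusters. Of the bright members 65.2% were lower on day 14 than on day 3, beside 51.5% of all that bright. Over all 86 members, the 3 higher without overlap were Ndufa1, Cox8b and Atp5d, and the lower ones included Cycs, Cox5a, Cox5b, Atp5o, Atp5g2, Ndufa5 and Ndufa11. For Ndufa1 the difference was 0.51 ± 0.21 (adjusted p = 0.193).

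The mock arrays varied more among themselves than the resected arrays. The median SD of a member was 0.30 in mock, 0.17 on day 3 and 0.19 on day 14, and over all transcript clusters it was 0.29, 0.25 and 0.26. In mock replicate 2, 11 members deviated by over 0.5 from their group mean, 10 of them upward, among them Ndufs5, Atp5e, Cox5a and Ndufa5. Ndufs5 read 9.58, 11.36 and 10.06 over the mock glands, Atp5e 8.78, 10.42 and 8.95, and Cox5a 12.67, 13.96 and 12.78. Mock replicates 1 and 3 had 9 and 2 such members. The share in mock replicate 2 (12.8%) was close to that of all transcript clusters on that array (11.2%).

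**Figure D3:**
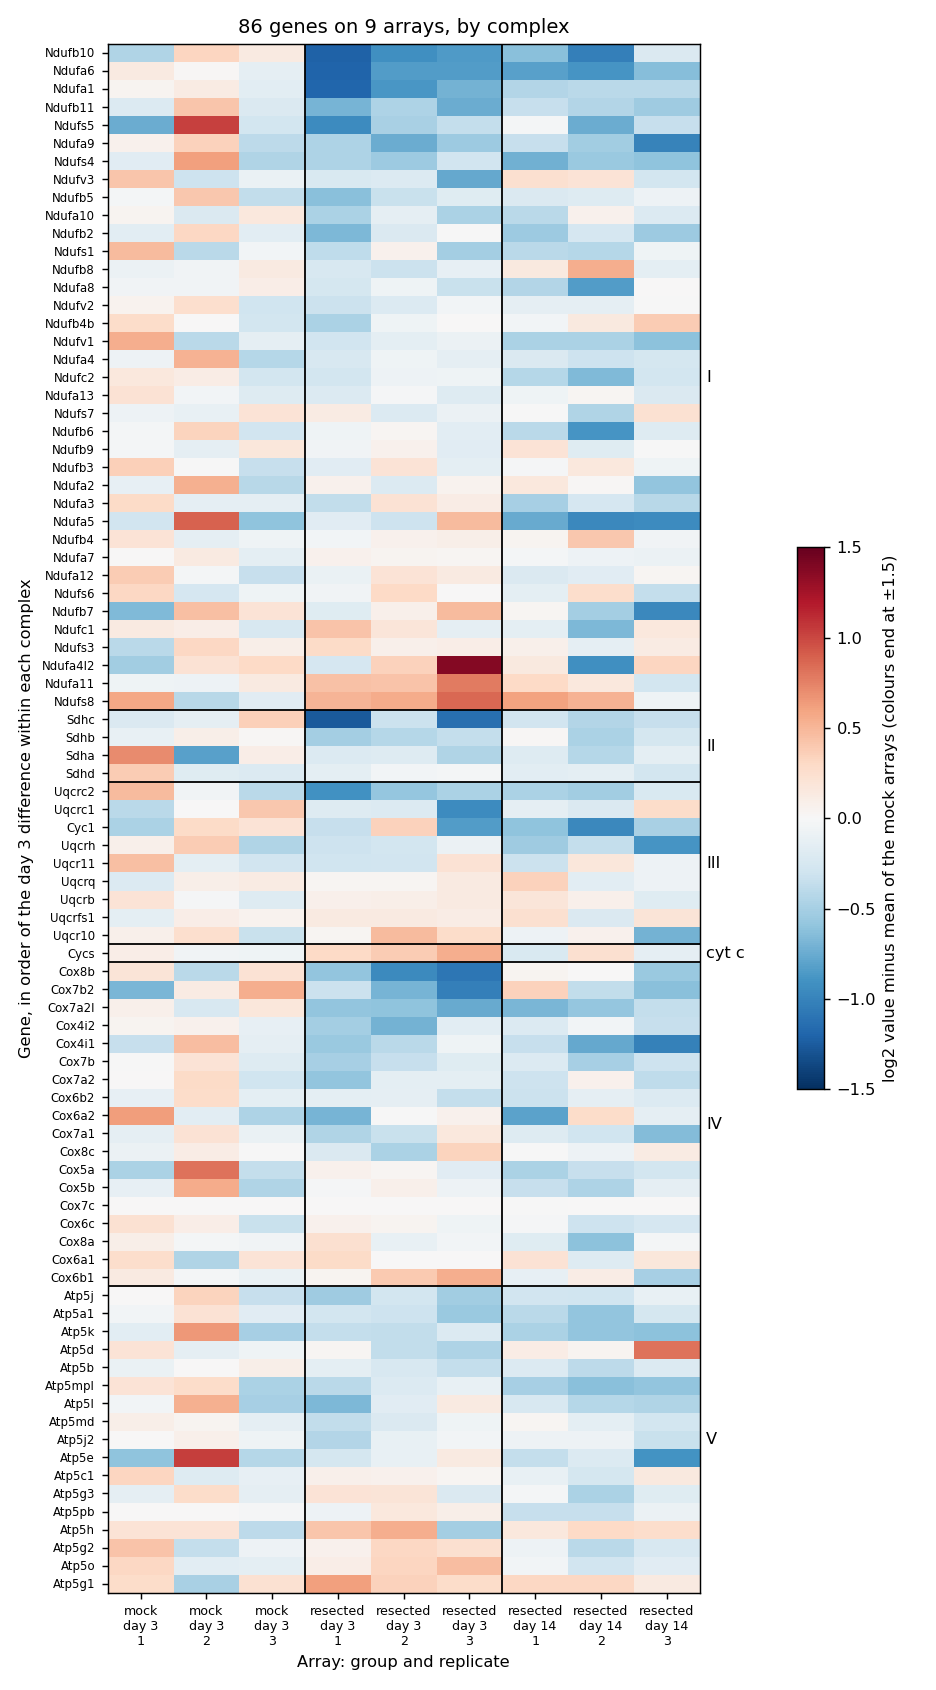
Log2 value minus the mean of the 3 mock arrays for the 86 genes (rows, by complex and ordered by the day 3 difference) on the 9 arrays (columns, by group and replicate). Red is higher and blue is lower, with colours as on the scale bar. Mock replicate 2 shows strong reds for Ndufs5 and Atp5e, and blue prevails in the 6 resected columns.

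Genes that serve the same pathway were read beside the subunits. The fatty acid oxidation genes lay lowest on day 3: 11 of 11 were below mock on both days, with medians of -0.49 and -0.23. Of all transcript clusters 56.9% lay below mock on day 3 and 50.2% on day 14, and both days share the mock arrays. Hadhb, the beta subunit of the trifunctional protein, fell by 0.89 ± 0.23 on day 3 (adjusted p = 0.0368), and this call was lost without any 1 of the 6 arrays other than mock replicate 3 (adjusted p 0.0915 to 0.132). Acadm, the medium-chain dehydrogenase, differed by -0.83 ± 0.27 (adjusted p = 0.101). The mitochondrial ribosome (76 genes) had medians of -0.05 and -0.15, the assembly factors (46) -0.04 and 0.00, and the tricarboxylic acid cycle with pyruvate dehydrogenase (16) -0.01 and -0.14, with 0 genes past the threshold in any of them on either day.

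Of the carriers and porins, 5 of 7 were above mock on day 3, none past the threshold. Slc25a4, the adenine nucleotide carrier, differed by 0.53 ± 0.22 (adjusted p = 0.221) and Slc25a5 by 0.45 ± 0.20 (adjusted p = 0.257). On day 14 all 7 were lower than on day 3, with a median of -0.36.

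Among 12 regulators of mitochondrial biogenesis, 1 passed the threshold against mock. Esrrg, a nuclear receptor that drives oxidative metabolism genes, read 11.18, 11.08 and 11.35 in mock, 10.10, 10.33 and 9.90 on day 3, and 11.32, 11.18 and 12.36 on day 14. The day 3 glands were well below all others, and day 14 overlapped mock. It fell by 1.09 ± 0.29 on day 3 (adjusted p = 0.0428) and rose by 1.51 ± 0.29 from day 3 to day 14 (adjusted p = 0.00641). The first call was lost without any 1 of the 6 arrays compared (adjusted p 0.0695 to 0.164), and the second was kept in every alternative run. Nrf1, a regulator of respiratory genes, read 8.19, 7.55 and 7.60 in mock, 8.40, 8.08 and 8.03 on day 3, and 7.28, 6.87 and 7.40 on day 14. Its day 14 glands were below all others, and it fell by 0.99 ± 0.24 from day 3 to day 14 (adjusted p = 0.0283). That call was lost without any 1 of those 6 arrays other than day 14 replicate 3 (adjusted p 0.0645 to 0.118) and after quantile normalization (0.0663). Ppargc1a, the coactivator PGC-1alpha, differed by -0.31 on day 3 and 0.27 on day 14, neither past the threshold.

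**Figure D4:**
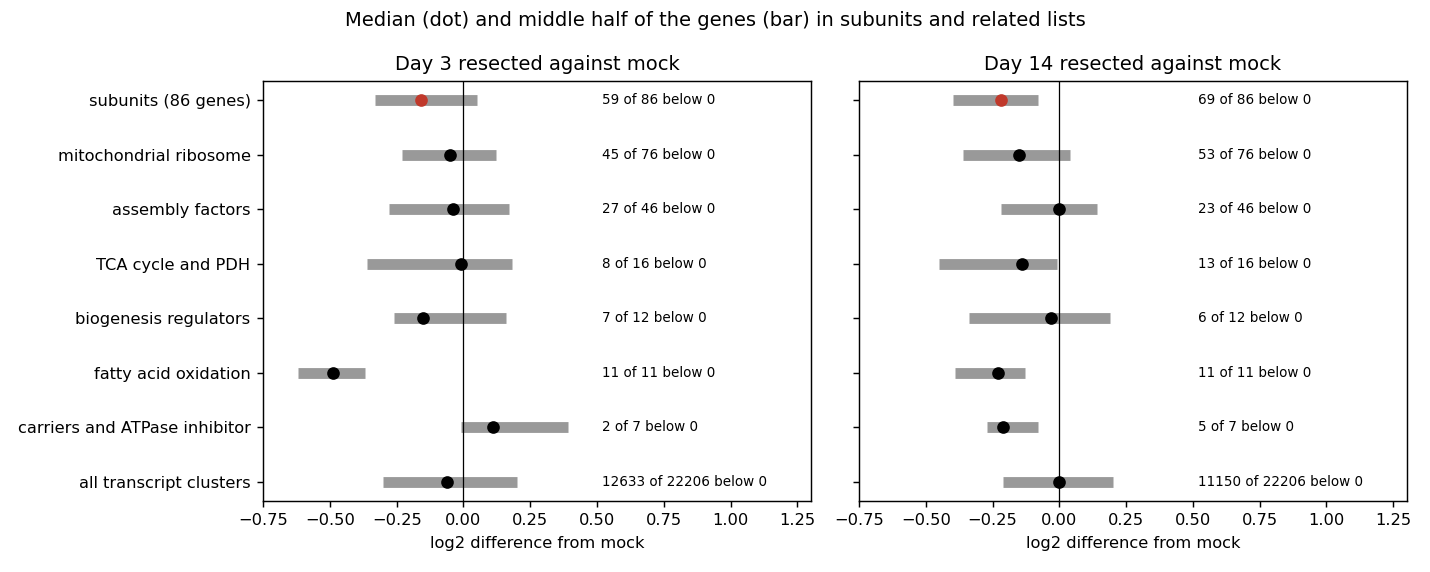
Median log2 difference from mock (dot) and the span from the 25th to the 75th percentile of the genes (grey bar) for the 86 subunits, 6 related gene lists and all transcript clusters, on day 3 (left) and day 14 (right). The text beside each bar gives how many genes lie below 0. Fatty acid oxidation lies farthest left on day 3, and the subunits lie left of all transcript clusters on both days.

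Markers of other cell types changed on day 3 beside these values. Among the markers counted here, Klk1 of the granular tubule and Car6, Prol1 and Pip of the acinus stood at the array maximum on all arrays, where no change can be measured. Of the macrophage markers 7 of 7 rose, with a mean log2 value of 7.53 to 8.28 in mock, 10.85 to 11.38 on day 3 and 8.25 to 8.69 on day 14. Of the fibroblast markers 4 of 5 rose (11.35 to 11.99, then 14.06 to 15.51, then 12.28 to 13). Of the granular tubule markers 4 of 5 fell (16.84 to 17.79, then 14.74 to 15.89, then 16.32 to 17.76). Of the 9 duct markers, a list not limited to the striated ducts, 1 rose, Krt19, and 1 fell, Scnn1g. Their median was -0.63, with mean levels of 10.22 to 10.64, 9.68 to 10.05 and 10.12 to 10.52. Krt19 was dim, at 3.66 to 4.3 in mock, where the dimmest 30% of transcript clusters end at a mean of 3.72. Of 8 acinar markers 2 fell (17.95 to 18.20, then 17.47 to 17.67, then 17.79 to 18.16). Single markers of other tissue also differed between glands. Ucp1, the brown fat uncoupling protein, read 8.61 in mock replicate 3 and 2.61 to 4.61 on the other arrays. Dcpp3, the 1 measured gene of 4 listed for the sublingual gland, read 5.80 to 8.17 in mock, 7.80 to 19.69 on day 3 and 14.05 to 19.71 on day 14. The part of these differences in the subunit values was not tested.

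Short sequences in the promoters were counted, a feature that the choice by name did not use, and no test of enrichment was run. RefSeq windows of 300 bases, 250 before and 50 after a start in build GRCm38.p6, were found for 70 of the 86 members (75 windows, since 5 members have 2), and exact matches were counted on both strands. GCATGCG, the core of the site bound by the factor NRF1, was in 16% of the member windows against 3.58% of all 32851 windows and 4.59% of windows of genes on the array. CCGGAAG, an ETS family site, was in 22.7% against 8.86% and 11.8%. ATGGCGG, the core of a YY1 site, was in 14.7% against 4.05% and 5.38%. Of the 10 members with it 8 were complex I genes, where complex I holds 37 of the 86 members. The share of complex I among the members with a window was not counted. TATAAA was in 12% against 13.6% and 12.3%. GCATGCG overlaps its own reverse complement, so a pair of adjacent matches can be 1 place, and windows with it were counted once.

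The 12 members with the NRF1 core were Cycs, Ndufa8, Ndufa11, Sdhb, Uqcr11, Uqcrc1, Cox6a1, Atp5g2, Atp5j, Atp5k, Atp5l and Ndufa6, where it lies at position -83 from the start. Of these, Cycs and Ndufa11 were higher on day 3 without overlap, and Ndufa6, Ndufa8 and Sdhb lower without overlap. Only Ndufa6 passed the threshold, and for Ndufa8 the highest day 3 value was 12.32 and the lowest mock value 12.33. Over all transcript clusters 11.2% were higher and 11.8% lower without overlap that day. A link between the match and the differences was not tested. The 10 members with the YY1 core were Ndufa1 (position -160), Ndufa5, Ndufa7, Ndufa9, Ndufb5, Ndufs4, Ndufs6, Ndufs7, Atp5b and Atp5j, and their day 3 differences ran from -0.93 for Ndufa1 to 0.09 for Ndufs6. In Atp5b, Ndufa9, Ndufb5, Ndufs4, Ndufs6 and Ndufs7 the YY1 match lies after the start, at positions 16 to 39. A match describes these letters only, and no binding was measured.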

How the data were processed

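The 9 arrays (Clariom S, mouse) were analysed from the deposited log2 values, which the authors made with Transcriptome Analysis Console 4.0 and RMA, per the submitters' processing notes and the labels. The build of the array annotation is not given in the sources used here. Tests covered 22206 transcript clusters, after 6640 control rows of the 28846 had been set aside. A symbol was found for 19572, through Entrez identifiers and RefSeq GRCm38.p6. Where a symbol had several transcript clusters, the one with the highest mean was used.

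All 9 arrays entered 1 limma 3.58.1 fit (R 4.3.3), with a mean per group and moderated variances (6 residual and 6.63 prior degrees of freedom). P-values are two-sided, adjusted by Benjamini and Hochberg over all transcript clusters within a comparison, with a threshold of 0.05. The fit was tested on simulated data. Values exceed 16 and end at 19.93, so log2 differences are on the deposited scale and not calibrated folds. RMA already aligned the arrays, which could hide a shift common to all genes.

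The members, gene lists and tests were chosen with earlier results of these data known. All members past the threshold are named in the text. The others named were picked mainly from those with large differences in their complex and those whose groups did not overlap. Some came from a panel of core subunits, from paralogue sets or from the members with a promoter match. Not every member of these kinds is named. Alternatives were quantile normalization, median centring, a filter on the dimmest 30%, array weights, trended variances, smaller fits, stricter member lists and leaving out each array.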

Additional observations from a re-analysis of the deposited data

How the results depend on the processing

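Of the 86 members, 3 passed the threshold on day 3. The count was 6 after quantile normalization (with Sdhc, Cox8b and Cox7a2l) and 5 after median centring (with Sdhc and Cox8b), 4 with trended and robust variances, 2 with only the groups compared or with array weights, and 1 to 3 when 1 array was left out, the lowest without day 3 resected replicate 1. On day 14, and between the resected groups, it was 0 in every setting run. With the replicate number as a replicate block the day 3 count was 3 and the median -0.16. Deviations of arrays with the same replicate number correlated at -0.09 to 0.05, so no shared deviation was seen. This cannot show whether glands with the same number were paired or handled together. Scalings changed the split of all calls on day 3 from 1092 higher and 301 lower to 973 and 452 (quantile) or 1013 and 480 (centring), and centring moved the median of all transcript clusters from -0.06 to -0.14. The cause of these shifts was not tested.

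The day 3 median of all members was -0.24 after centring. That of complex I was -0.25 after quantile normalization and -0.21 after centring, and that of complex III was -0.23 and -0.20, and 0.06 without members of mean below 10 (an alternative chosen after seeing the data). Complex IV was 0.00 on day 3 with the strict list (tissue paralogues and Cox7a2l left out) and without members of mean below 10. Against day 3, the day 14 medians after quantile normalization were 0.07 for complex I, 0.26 for II and 0.08 for III, and complex IV was -0.26 with the strict list and -0.21 without members of mean below 10.

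With 1 array left out, the medians ranged as follows. For all members they were -0.24 to -0.08 on day 3 (54 to 64 of 86 below mock), -0.29 to -0.16 on day 14 (65 to 73 below) and -0.12 to -0.05 between the resected groups. On day 3 they were -0.24 to -0.09 for complex I, -0.54 to -0.21 for II, -0.19 to -0.01 for III, -0.35 to -0.08 for IV and -0.24 to 0.02 for V. On day 14 they were -0.34 to -0.14 for I, -0.35 to -0.15 for II, -0.23 to -0.08 for III, -0.33 to -0.16 for IV and -0.26 to -0.13 for V. Complex III ranged from -0.15 to 0.02 between the resected groups.

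Some small differences turned sign. With 1 array left out, Cox6a1 ranged from -0.13 to 0.23 on day 3 and from -0.16 to 0.20 on day 14, Sdha from -0.68 to 0.08, from -0.66 to 0.10 and, between the resected groups, from -0.06 to 0.11. Sdhd ranged from -0.18 to 0.12 on day 3. On day 14 Cox8c ranged from -0.05 to 0.06, Cycs from -0.17 to 0.06, Uqcrb from -0.06 to 0.14 and Uqcrfs1 from -0.02 to 0.22. After quantile normalization the day 14 differences were -0.02 for Cox8c (-0.01 after centring), 0.04 for Cycs and -0.03 for Uqcrb, and Sdhd was 0.01 between the resected groups. None of these had passed the threshold. With 3 arrays per group and no detection calls in the table used, the precision of single differences is limited, and values at the ceiling of 19.93 cannot show a change.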
